A study of Mus musculus with 16 samples.

Results

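The 38 genes described here encode the machinery of nucleotide excision repair, with Ercc1 among them, and they were picked by gene symbol from the 54752 genes of a liver count table. All 38 were found and all 38 passed the filter on low counts, as did 17833 of the 54752 genes. They fall into 5 steps, with 7 genes of damage sensing, 3 of transcription-coupled repair, 10 of the transcription factor TFIIH, 7 of damage verification and excision and 11 of gap filling and ligation. RNA was sequenced from snap-frozen liver of male mice aged 11 weeks, as 16 libraries with 4 for each diet. Every mouse, control mice included, was an F1 hybrid of C57BL6J and FVBN and carried the genotype Ercc1 d/-, in which 1 allele encodes a truncated protein and the other is null, so no animal with intact Ercc1 is among these samples. The high-protein diet held about 194% of the protein and 70% of the carbohydrate of the standard diet, the low-protein diet 70% of the protein and about 112% of the carbohydrate, and the low-fat diet 70% of the fat and about 112% of the carbohydrate. The control mice ate the standard synthetic diet AIN93G. The altered diets were isocaloric, started at 8 weeks of age after rearing on AIN93G, and were eaten ad libitum.

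Nucleotide excision repair removes bulky lesions that distort the DNA helix. A lesion is found either anywhere in the genome, by the XPC and DDB complexes, or where it stalls RNA polymerase II, by the Cockayne syndrome proteins, and both routes then load TFIIH to open the helix. XPA and RPA verify the lesion, XPG cuts on its 3′ side and the ERCC1-XPF nuclease on its 5′ side, and replication proteins fill and seal the gap. ERCC1-XPF also acts in the repair of crosslinks between DNA strands, and mice with too little of it age early, with enlarged polyploid nuclei in the liver.

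Library totals ran from 37317405 to 46899907 counts with high protein, 36662347 to 43404769 with low protein, 36871852 to 112789127 with low fat and 35243594 to 46051218 in controls. All 10 hepatocyte markers, among them Alb and Hnf4a, were detected in all 4 groups, with a summed level of 84253 to 116462 CPM (counts scaled to a common library total) over the 16 libraries. Kidney transcripts were present as well. The sum of 19 kidney markers ran from 0.426 to 1501 CPM with high protein, 650.5 to 1257 CPM with low protein, 973 to 2953 CPM with low fat and 87.6 to 5024 CPM in controls, and 15 of the 19 were at 0 in at least 1 high-protein library. Control 4 stood apart. Its normalisation factor was 0.7778, the summed level of 15 p53 target genes was 1689.7 CPM in it against 297 to 354 CPM in the other 3 controls, and for 29.1% of all genes tested it was the highest of the 16 libraries and for 26.1% the lowest. Markers of Kupffer cells, the liver's macrophages, summed to 200 to 266 CPM with high protein, 212 to 311 CPM with low protein, 237 to 384 CPM with low fat and 138 CPM in control 4 to 270.4 CPM in control 3. In bulk tissue, fewer cells of a type and less RNA per cell cannot be told apart.

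No repair gene passed the test in any comparison of diets. In edgeR's quasi-likelihood test with Benjamini-Hochberg adjustment over 17833 genes, 0 of 38 repair genes and 0% of all genes had an adjusted p under 0.05 in each of the 6 pairwise comparisons and in the test of any difference among the 4 diets. DESeq2 called 0 of the 38 in every comparison too, and between 0 and 81 of all genes. The smallest adjusted p of a repair gene in edgeR was 0.762 between high protein and control, 0.682 between low protein and control, 0.53 between low fat and control and 0.695 among the 4 diets. At an unadjusted p under 0.05, 1 of 38 genes was higher and 3 were lower with high protein than in control, against 2.48% and 3.74% of all genes. With low protein 1 was higher and 4 were lower, against 2.35% and 4.73% of all genes. With low fat 1 was higher and 5 were lower, against 3.09% and 6.13% of all genes.

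The altered diets were also compared with each other. Between high protein and low protein, 0 genes were higher and 1 was lower at an unadjusted p under 0.05, against 2.34% and 2.83% of all genes. Between high protein and low fat the counts were also 0 and 1, against 4.67% and 4.41% of all genes. Between low fat and low protein they were 0 and 0, against 1.01% and 1.37% of all genes. Among the 4 diets together 3 members had an unadjusted p under 0.05, against 6.59% of all genes. Those 3 were Ercc8, Ddb2 and Rfc3. Without control 4, which enters these fits through the shared estimate of spread, 5 members had an unadjusted p under 0.05 between high protein and low protein and 5 between high protein and low fat. With only the compared groups in the fit, the counts were 4 and 4, against 1 between low protein and control and 1 between low fat and control. The shares of all genes at that threshold in these fits are not given here, so the counts cannot be read as particular to the members. Of all genes tested, those with an adjusted p under 0.05 between high protein and low fat also rose, from 0 to 19 without control 4. The 3 comparisons with control share the same 4 control libraries, control 4 included.

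Fold changes against control are given by step, and differences between steps were not tested. Over all 38 genes the median log2 fold change was -0.07 with high protein, -0.07 with low protein and -0.13 on the low-fat diet, and 11, 15 and 12 of the 38 lay above 0. Over all genes tested the medians were -0.06, -0.03 and -0.02, and 41.7%, 45.6% and 47.6% lay above 0. The 3 genes of transcription-coupled repair all lay below 0 in all 3 comparisons with control (Uvssa with high protein by an amount that rounds to 0), with medians of -0.28, -0.24 and -0.3. Without control 4 the medians of that step were -0.07, -0.04 and -0.11, and 1, 1 and 0 of the 3 lay above 0. Of the 7 genes of damage verification and excision, 0 lay above 0 with high protein, 1 with low protein and 1 on the low-fat diet, with medians of -0.15, -0.14 and -0.23. Without control 4 these counts were 2, 2 and 0 and the medians -0.07, -0.01 and -0.13. TFIIH had medians of -0.02, 0.08 and 0.01, with 4, 6 and 5 of 10 genes above 0, and without control 4 medians of -0.01, -0.01 and -0.06. Gap filling had medians of -0.07, -0.04 and -0.06, with 4, 5 and 4 of 11 genes above 0, and without control 4 medians of -0.12, -0.08 and -0.16, with 1, 2 and 2 above 0. Damage sensing had medians of -0.01, -0.12 and -0.21, with 3, 3 and 2 of 7 genes above 0, and without control 4 medians of -0.01, 0 and -0.11. The order of the steps therefore turned with control 4.

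**Figure D1:**
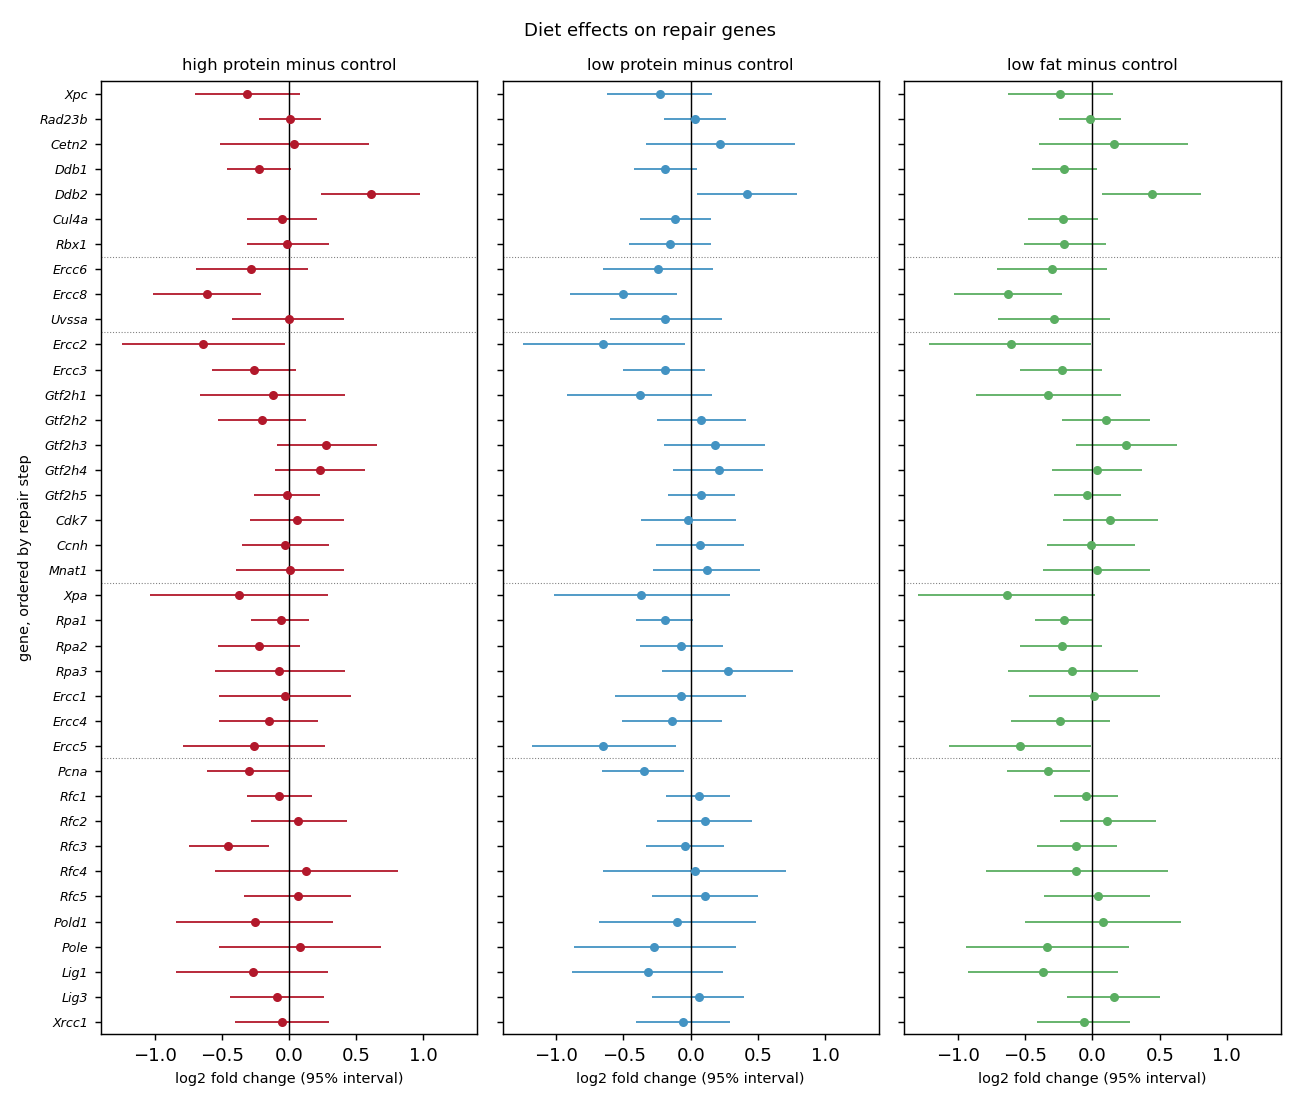
Log2 fold change of each of the 38 repair genes (points) with its 95% interval from the edgeR fit (lines), for high protein, low protein and low fat each minus control, n = 4 libraries per diet; dotted lines divide the 5 repair steps. Most intervals include 0, Ercc8 lies below 0 in all 3 panels and Ddb2 above 0 in all 3, and 0 of 38 genes passed the adjusted threshold in any panel.

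Ercc1 itself (ENSMUSG00000003549.9, chromosome 7, 19344778 to 19356524, plus strand, GRCm38.p6) encodes the partner that positions the XPF nuclease. Its reads counted 46 to 175 per library, and the counts do not separate the truncated allele from the null allele. Levels below are CPM on library sizes scaled by TMM, edgeR's trimmed-mean normalisation. Ercc1 stood at 1.7, 1.83, 1.62 and 1.27 CPM in high-protein livers 1 to 4, at 1.88, 1.67, 1.31 and 1.37 CPM with low protein, at 1.72, 1.46, 1.42 and 2.01 CPM with low fat, and at 1.89, 1.29, 1.96 and 1.41 CPM in controls. All 4 groups overlapped over most of their range. The group means were 1.6 ± 0.239, 1.56 ± 0.269 and 1.65 ± 0.272 CPM on the altered diets and 1.64 ± 0.334 CPM in control (SD, n = 4 each). The log2 fold change against control was -0.03 with high protein (95% interval -0.52 to 0.46), -0.07 with low protein (-0.56 to 0.41) and 0.01 with low fat (-0.47 to 0.5), each with an SE of 0.22 and an edgeR adjusted p of 0.932 or more. Counting error was a sizeable part of that spread, with an exact Poisson 95% interval of 0.932 to 1.69 CPM for high-protein 4 and 0.944 to 1.72 CPM for control 2.

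Ercc1 was among the least abundant repair transcripts in these Ercc1 d/- livers. No liver with intact Ercc1 was sampled, so its rank in normal liver cannot be told here. Per kilobase of exon its level averaged 0.519 FPKM over the 16 libraries, the third lowest of the 38, above Pole at 0.376 FPKM and Ercc8 at 0.493 FPKM and below Pold1 at 0.899 FPKM. The highest were Ddb1 at 63.8 FPKM, Rad23b at 25.4 FPKM and Cul4a at 18.1 FPKM. By group, Ercc1 stood at 0.516 ± 0.0769 FPKM with high protein, 0.501 ± 0.0863 FPKM with low protein, 0.532 ± 0.0876 FPKM with low fat and 0.526 ± 0.107 FPKM in control (SD, n = 4), differences well within the spread of each group.

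Ercc4 (chromosome 16, 13109684 to 13150617) encodes XPF, the catalytic partner in the same nuclease. Its level was 12.7, 10.9, 8.77 and 9.58 CPM with high protein, 9.37, 12.2, 11.3 and 9.34 CPM with low protein, 9.8, 9.23, 11.5 and 8.81 CPM with low fat, and 11.7, 9.78, 10.1 and 15 CPM in controls. The groups overlapped, and control 4 held the highest value. The log2 fold change against control was -0.15 with high protein, -0.14 with low protein and -0.24 on the low-fat diet (SE 0.17, edgeR adjusted p 0.646 to 0.826), and without control 4 it was -0.01, -0.01 and -0.12. Per kilobase, Ercc4 exceeded Ercc1 in every library, all of them from Ercc1 d/- mice. The ratio was 3.04 ± 0.496 with high protein, 3.2 ± 0.694 with low protein, 2.83 ± 0.719 with low fat and 3.42 ± 1.1 in control (SD, n = 4), with single libraries from 2.03 in low-fat 4 to 4.91 in control 4.

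The annotated Ercc1 gene overlaps Cd3eap, a subunit gene of RNA polymerase I on the opposite strand, by 511 bases. Cd3eap averaged 254.8 counts per library and Ercc1 71.9, and the strand setting of the counting is not given in the sources used here, so reads in the shared bases cannot be assigned to a strand. Cd3eap stood at 6.09 ± 1.56 CPM with high protein, 5.89 ± 1.32 CPM with low protein, 5.04 ± 1.1 CPM with low fat and 5.57 ± 1.34 CPM in control (SD, n = 4). Its log2 fold change against control was 0.13, 0.08 and -0.14 (SE 0.24). Among the genes whose log2 CPM over the 16 libraries was most like that of Ercc1 were Prrx1 (Pearson r 0.88), 9530085L11Rik (0.76), Rfx3 (0.74) and Pdik1l (0.72), a description over libraries that also differ in depth. Among the other repair genes the coefficients ran from -0.4 for Ddb1 and -0.39 for Ercc6 to 0.57 for Rfc4.

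The promoters below are printed for Ercc1 and for Ercc8 and Rfc3, whose levels separated groups of libraries. Each is the 250 bases before a RefSeq gene start in GRCm38.p6, 5′ to 3′ on the gene's strand. Capitals mark matches, on either strand, to an E2F motif (TTTCGCGC, TTTGGCGC or TTTCCCGC), the ETS motif CCGGAAGT, the CCAAT box CCAAT and TGACGT, the core of the cAMP response element. TATAAA was searched as well.
Ercc1, chr7:19344821-19345070, plus strand: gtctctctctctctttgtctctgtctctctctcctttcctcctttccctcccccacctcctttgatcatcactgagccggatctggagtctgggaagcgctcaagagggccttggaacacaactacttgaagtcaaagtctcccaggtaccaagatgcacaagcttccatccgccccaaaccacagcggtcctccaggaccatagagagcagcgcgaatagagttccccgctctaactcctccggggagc
Ercc8, chr13:108158488-108158737, plus strand: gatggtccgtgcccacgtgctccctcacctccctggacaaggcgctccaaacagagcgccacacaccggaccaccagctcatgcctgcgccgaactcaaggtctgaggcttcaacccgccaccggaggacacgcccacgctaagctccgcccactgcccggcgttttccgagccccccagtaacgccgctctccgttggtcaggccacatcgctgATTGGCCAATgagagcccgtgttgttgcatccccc
Rfc3, chr5:151651209-151651458, minus strand: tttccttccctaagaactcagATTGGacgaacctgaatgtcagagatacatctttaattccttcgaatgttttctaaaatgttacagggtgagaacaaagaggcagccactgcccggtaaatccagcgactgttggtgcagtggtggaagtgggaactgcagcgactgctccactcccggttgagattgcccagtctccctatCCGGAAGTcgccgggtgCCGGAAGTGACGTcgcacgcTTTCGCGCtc
The Ercc1 window held none of the 5 motifs and had a GC content of 55.6%, and it lies inside the span of the gene in the count table, which starts farther upstream. The Ercc8 window held 2 matches to the CCAAT box, 1 on each strand and back to back, and a GC content of 65.2%. The Rfc3 window held 1 E2F, 2 ETS, 1 CCAAT and 1 TGACGT match with a GC content of 52.4%, and the TGACGT match shares its first base with the end of an ETS match.

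Of the 38 genes, 32 had a promoter in the table, with 35 windows, and Xpc, Ddb2, Ercc3, Ccnh, Rfc2 and Pole had none. The ETS motif was in 5 of the 35 windows (14.3%), those of Gtf2h2, Rfc3, Rfc4, Rpa2 and Rpa3, against 2.88% of the 32851 windows of all genes. The E2F motif was in 2 of 35 (5.71%), those of Rbx1 and Rfc3, against 1.53% of all windows. CCAAT was in 16 of 35 (45.7%) against 33.8%, and TGACGT in 7 of 35 (20.0%) against 6.47%. TATAAA was in 0 of 35 against 12.4%. The median GC content was 64.4% in the repair gene windows and 52.4% in all windows, a difference in base composition that goes with motif counts and was not adjusted for.

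Damage sensing begins with XPC, which binds distorted DNA with RAD23B and centrin 2, and with DDB1 and DDB2, which recognise ultraviolet lesions and work in a ubiquitin ligase with CUL4A and RBX1. Ddb2 (chromosome 2, 91211572 to 91236982), a p53 target in human cells, was the member with the largest positive fold change in all 3 comparisons with control, and it did not pass the test in any. Ddb2 stood at 5.59, 4.39, 5.22 and 4.67 CPM with high protein, 4.32, 3.99, 4.2 and 4.96 CPM with low protein, 4.41, 4.47, 3.93 and 4.84 CPM with low fat, and 2.58, 4.2, 3.06 and 3.16 CPM in controls. All 4 high-protein livers lay above all controls, while control 2 overlapped the low-protein and low-fat livers. The log2 fold change against control was 0.61 with high protein (SE 0.17, unadjusted p 0.00259, edgeR adjusted p 0.762). It was 0.42 with low protein (unadjusted p 0.0244, adjusted p 0.682) and 0.44 with low fat (unadjusted p 0.0203, adjusted p 0.53).

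The Ddb2 values did not rest on control 4, without which the log2 fold changes were 0.59, 0.39 and 0.4. With the kidney marker sum as a covariate they were 0.57, 0.46 and 0.51. Ddb2 overlaps the opposite-strand gene Acp2, a lysosomal phosphatase, over 2527 bases, and Acp2 had 2390.3 counts per library on average against 191.8 for Ddb2. Acp2 stood at 51.6 ± 4.96 CPM with high protein, 56.2 ± 4.08 CPM with low protein, 57.1 ± 4.17 CPM with low fat and 45.6 ± 15.4 CPM in control (SD, n = 4). The Ddb2 means were 4.97 ± 0.539, 4.37 ± 0.418, 4.41 ± 0.373 and 3.25 ± 0.682 CPM in the same order. Both genes had their lowest mean in control, and Acp2 had log2 fold changes of 0.18, 0.3 and 0.32 against it (SE 0.19). Among the altered diets, high protein had the highest Ddb2 mean and the lowest Acp2 mean. The part of Acp2 reads in the Ddb2 values was not tested.

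Ddb1 (chromosome 19, 10605625 to 10629813) was the most abundant repair transcript, at 60.8 ± 1.35 FPKM with high protein, 62.3 ± 4.2 FPKM with low protein, 61.3 ± 3.79 FPKM with low fat and 70.8 ± 9.95 FPKM in control (SD, n = 4). The high-protein livers held 245 to 258 CPM and the controls 264 to 355 CPM without overlap, with a log2 fold change of -0.22 (SE 0.11, edgeR adjusted p 0.762) that was -0.13 without control 4. Ddb2 was the least abundant of this step, at 1.82 ± 0.197, 1.6 ± 0.153 and 1.61 ± 0.136 FPKM on the altered diets in the same order and 1.19 ± 0.249 FPKM in control. Rad23b, the XPC partner, lay between 130 and 166 CPM in all 16 libraries, with log2 fold changes of 0.01, 0.03 and -0.02. For Xpc the log2 fold changes of -0.31, -0.23 and -0.24 were -0.06, 0.01 and -0.01 without control 4, in which it stood at 40.4 CPM against 20.5 to 26.1 CPM in the other controls.

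Transcription-coupled repair uses ERCC6 (CSB), an ATPase that senses the stalled polymerase, ERCC8 (CSA), which recruits a ubiquitin ligase, and UVSSA, which helps to load TFIIH. Ercc8 (ENSMUSG00000021694.18, chromosome 13, 108158731 to 108195364) was lower on every altered diet than in any control. It stood at 3.8, 3.71, 2.87 and 2.75 CPM with high protein, 3.56, 3.5, 3.62 and 3.51 CPM with low protein, 3.23, 3.6, 2.58 and 3.57 CPM with low fat, and 5.34, 3.81, 4.83 and 6.11 CPM in controls. The 12 livers on altered diets reached 3.8 CPM at most and the lowest control, control 2, stood at 3.81 CPM, so the separation of those 2 values is far smaller than the spread within either group. Ercc8 was the only member below all controls in all 12 (0.028% of all genes did so), and 0 members were above all controls in all 12 (0.0449% of all genes).

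The Ercc8 log2 fold change against control was -0.61 with high protein (SE 0.18, unadjusted p 0.0046, edgeR adjusted p 0.762). It was -0.5 with low protein (unadjusted p 0.0155, adjusted p 0.682) and -0.63 with low fat (unadjusted p 0.0038, adjusted p 0.53). Among the 4 diets the unadjusted p was 0.00939 and the adjusted p 0.695. Without control 4, the highest library, the log2 fold changes were -0.51, -0.41 and -0.55, and with the kidney covariate they were -0.64, -0.48 and -0.59. Between the altered diets Ercc8 differed by 0.13 or less on the log2 scale, with 95% intervals such as -0.51 to 0.29 for high protein minus low protein. Per kilobase it was the least abundant of its step, at 0.429 ± 0.0717 FPKM with high protein, 0.463 ± 0.00682 FPKM with low protein, 0.424 ± 0.0616 FPKM with low fat and 0.656 ± 0.126 FPKM in control (SD, n = 4). Its counts ran from 102 to 430 per library.

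Uvssa was the most abundant of the 3, at 2.55 ± 0.142 FPKM with high protein, 2.24 ± 0.348 FPKM with low protein, 2.09 ± 0.164 FPKM with low fat and 2.56 ± 0.933 FPKM in control (SD, n = 4). The high-protein livers, at 21.1 to 23.8 CPM, lay above the low-fat livers, at 16.9 to 20.2 CPM, with a log2 fold change of 0.29 (SE 0.19, edgeR adjusted p 0.63). That was 1 of 38 members with all high-protein libraries above all low-fat ones, against 4.23% of all genes. Without control 4 the Uvssa value for high protein minus low fat was 0.31 (SE 0.11, unadjusted p 0.0142, edgeR adjusted p 0.186). Ercc6 ranged from 13 to 27.1 CPM over the 16 libraries with log2 fold changes of -0.28, -0.24 and -0.3 against control, which were -0.07, -0.04 and -0.11 without control 4.

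**Figure D2:**
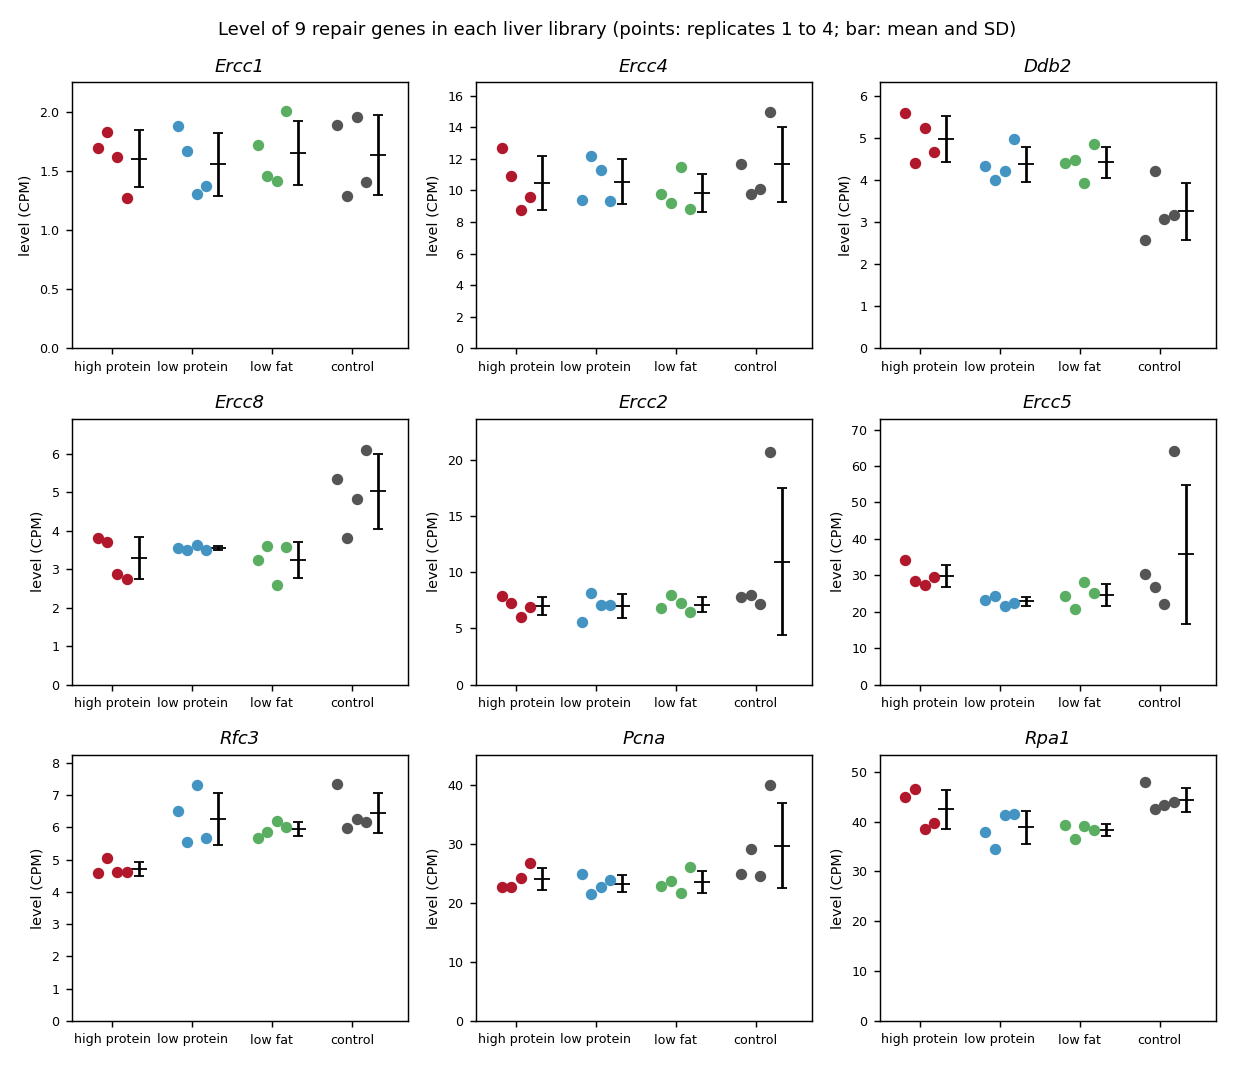
Level in CPM of 9 repair genes in each library, with points for replicates 1 to 4 of high protein, low protein, low fat and control, and bars for the mean and SD of each group (n = 4). Ercc1 overlaps in all groups, Ercc8 lies highest in controls, Ddb2 lies lowest in controls, Rfc3 lies lowest with high protein (4.59 to 5.05 CPM), and control 4 alone carries the high values of Ercc2, Ercc5 and Pcna.

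TFIIH consists of a core with the helicases XPB (Ercc3) and XPD (Ercc2) and the subunits Gtf2h1 to Gtf2h5, and of a kinase module with Cdk7, cyclin H (Ccnh) and Mnat1, and it serves transcription as well as repair. Ercc2 (chromosome 7, 19382010 to 19395694) stood at 7.89, 7.28, 5.98 and 6.93 CPM with high protein, 5.6, 8.18, 7.05 and 7.07 CPM with low protein, 6.8, 7.97, 7.29 and 6.43 CPM with low fat, and 7.81, 8.01, 7.2 and 20.7 CPM in controls. The other 15 libraries spanned 5.6 to 8.18 CPM, and control 4 lay far above them. The log2 fold changes of -0.64, -0.65 and -0.61 against control (SE 0.28, unadjusted p 0.037, 0.0346 and 0.0427, edgeR adjusted p 0.762, 0.682 and 0.534) were -0.13, -0.15 and -0.14 without control 4. Ercc2 overlaps Klc3, Mir343 and the antisense gene Gm26852, which averaged 12.4, 1.4 and 30.9 counts per library against 353.8 for Ercc2.

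The other 9 TFIIH genes had log2 fold changes between -0.26 and 0.28 with high protein, between -0.38 and 0.21 with low protein and between -0.33 and 0.25 with low fat. Gtf2h1, the p62 subunit, was the most abundant at 13.2 ± 1.53 FPKM with high protein, 11 ± 0.869 FPKM with low protein, 11.4 ± 1.53 FPKM with low fat and 14.3 ± 7.64 FPKM in control (SD, n = 4). Control 4 stood at 76.5 CPM against 27.7 to 36.9 CPM in the other controls. Without that library the Gtf2h1 log2 fold change with high protein was 0.31 (unadjusted p 0.0323, edgeR adjusted p 0.542), against -0.12 with it. Mnat1, the assembly factor of the kinase module, was the least abundant at 1.32 ± 0.32, 1.42 ± 0.103 and 1.34 ± 0.192 FPKM on high protein, low protein and low fat and 1.31 ± 0.217 FPKM in control, and it is the longest member at 150.3 kb. Gtf2h5, the small stabilising subunit, stayed between 19.8 and 27.7 CPM in all 16 libraries.

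Damage verification and excision couples XPA and the single-strand binding protein RPA with the nucleases ERCC1-XPF and XPG. Ercc5 (chromosome 1, 44147744 to 44181260), which encodes XPG, stood at 34.1, 28.5, 27.2 and 29.5 CPM with high protein, 23.2, 24.4, 21.5 and 22.3 CPM with low protein, 24.4, 20.8, 28.1 and 25.1 CPM with low fat, and 30.3, 26.7, 22.2 and 64 CPM in controls. The high-protein livers all lay above the low-protein livers, with a log2 fold change of 0.39 (SE 0.24, edgeR adjusted p 0.972). That was 1 of 38 members with such a separation, against 3.15% of all genes. Control 4 enters this SE through the shared estimate of spread. Without it, high protein minus low protein was 0.4 (SE 0.12, unadjusted p 0.00395, edgeR adjusted p 0.24). Against control the log2 fold change was -0.26 with high protein, -0.65 with low protein (unadjusted p 0.0181, adjusted p 0.682) and -0.54 with low fat (unadjusted p 0.0423, adjusted p 0.534). Without control 4 these were 0.17, -0.23 and -0.13, so the sign for high protein turned with that library.

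Rpa1 (chromosome 11, 75298166 to 75348324), the large RPA subunit, was the most abundant gene of this step at 7.62 ± 0.706 FPKM with high protein, 6.96 ± 0.586 FPKM with low protein, 6.87 ± 0.229 FPKM with low fat and 7.96 ± 0.43 FPKM in control (SD, n = 4). It stood at 45, 46.6, 38.5 and 39.8 CPM with high protein, 38, 34.6, 41.3 and 41.5 CPM with low protein, 39.3, 36.5, 39.1 and 38.4 CPM with low fat, and 47.9, 42.5, 43.3 and 43.9 CPM in controls. The low-protein and low-fat livers lay below all controls and the high-protein livers overlapped them. The log2 fold change was -0.06 with high protein, -0.19 with low protein (unadjusted p 0.0701) and -0.21 with low fat (SE 0.1, unadjusted p 0.0488, edgeR adjusted p 0.539). Here control 4 was not the extreme library, and without it the values were -0.07, -0.22 and -0.25.

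Counts of separated members can be read against all genes. With high protein 1 member lay wholly above the controls, which was Ddb2 (1.12% of all genes), and 3 wholly below, which were Ddb1, Ercc8 and Rfc3 (0.841%). With low protein 0 lay above (1.61%) and 2 below, which were Ercc8 and Rpa1 (0.869%). With low fat 0 lay above (1.27%) and the same pair lay below (1.32%). These counts make up 2.63% and 7.89% of the members with high protein and 5.26% below control with each of the other diets. Between low fat and low protein, Xpa was the 1 member below (2.14% of all genes), at 6.36 to 8.45 CPM with low fat and 8.47 to 10.4 CPM with low protein, a log2 fold change of -0.28 (SE 0.3, edgeR adjusted p 1).

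Xpa, which checks the lesion and holds the complex together, stood at 23 CPM in control 4 against 6.91 to 8.52 CPM in the other controls, and at 6.36 to 11.1 CPM in the 12 livers on altered diets. Its log2 fold change against control was -0.37 with high protein, -0.37 with low protein and -0.64 on the low-fat diet (SE 0.3, unadjusted p 0.0512 for low fat). Without control 4 these were 0.19, 0.18 and -0.11, so the first pair changed sign. Xpa shares 17057 bases with the opposite-strand gene Ncbp1, a cap-binding protein gene that stood at 26.6 ± 2.34 CPM with high protein, 25.1 ± 1.69 CPM with low protein, 27.3 ± 3.34 CPM with low fat and 31.1 ± 9.64 CPM in control (SD, n = 4). The small subunit Rpa3 ranged from 3.16 to 3.52 CPM with high protein, 3.33 to 4.94 CPM with low protein, 2.7 to 3.47 CPM with low fat and 1.93 to 4.25 CPM in control, with its lowest value in control 4.

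Gap filling needs the clamp PCNA, the clamp loader RFC with 5 subunits, the polymerases delta and epsilon (Pold1, Pole) and ligase I or ligase III with XRCC1. Rfc3 (ENSMUSG00000033970.15, chromosome 5, 151642756 to 151651242) stood at 4.59, 5.05, 4.6 and 4.61 CPM with high protein, 6.49, 5.55, 7.3 and 5.67 CPM with low protein, 5.68, 5.86, 6.19 and 6.01 CPM with low fat, and 7.35, 5.97, 6.26 and 6.17 CPM in controls. All 4 high-protein livers lay below the other 12, and Rfc3 was the only member with that pattern (0.0673% of all genes), while 0 members were above the other 12 (0.0897% of all genes). The log2 fold change was -0.45 against control (SE 0.13, unadjusted p 0.00449, edgeR adjusted p 0.762). It was -0.41 against low protein (unadjusted p 0.00841, adjusted p 0.921) and -0.33 against low fat (unadjusted p 0.0258, adjusted p 0.528). In those last 2 comparisons it was the 1 member wholly below, against 3.47% and 3.99% of all genes.

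Rfc3 did not depend on control 4, with a log2 fold change against control of -0.48 without it and -0.44 with the kidney covariate. The log2 fold changes of the other clamp loader subunits with high protein against control were -0.07 for Rfc1, 0.07 for Rfc2, 0.13 for Rfc4 and 0.07 for Rfc5, with intervals as wide as -0.55 to 0.81 for Rfc4, and differences between subunits were not tested. Without control 4 they were -0.11 for Rfc1, -0.1 for Rfc2, -0.12 for Rfc4 and -0.09 for Rfc5, on the same side of 0 as Rfc3. The annotated Rfc4 gene overlaps Eif4a2 by 194 bases, and Eif4a2 averaged 12058.5 counts per library against 126.6 for Rfc4. Rfc5 overlaps Wsb2 by 499 bases with 2060.1 against 350.1 counts. Further members overlap protein-coding genes on the opposite strand, Ccnh with Rasa1 over 8690 bases, Lig3 with Rffl over 1826, Rfc2 with Lat2 over 1784 and Lig1 with Zswim9 over 1439. The remaining overlaps were with pseudogenes, antisense or unclassified transcripts and small RNAs that averaged at most 54.9 counts per library. Ercc8 and Rfc3 overlap no other annotated gene.

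Pcna (chromosome 2, 132249162 to 132253314) stood at 22.6, 22.7, 24.1 and 26.7 CPM with high protein, 24.8, 21.5, 22.6 and 23.8 CPM with low protein, 22.8, 23.7, 21.7 and 26 CPM with low fat, and 24.9, 29.1, 24.6 and 40 CPM in controls. Groups overlapped, with control 4 far above the rest. The log2 fold change was -0.3 with high protein (SE 0.14, unadjusted p 0.0502), -0.35 with low protein (unadjusted p 0.0238, edgeR adjusted p 0.682) and -0.33 with low fat (unadjusted p 0.0339, adjusted p 0.53). Without control 4 these were -0.13, -0.19 and -0.18. Pcna was the most abundant gene of this step, at 10 ± 0.803, 9.65 ± 0.588 and 9.82 ± 0.755 FPKM with high protein, low protein and low fat and 12.3 ± 3 FPKM in control (SD, n = 4). Per kilobase of exon, Pole was the least abundant of all 38, at 0.433 ± 0.0754, 0.339 ± 0.14 and 0.324 ± 0.0652 FPKM in the same order and 0.408 ± 0.0996 FPKM in control. That rank depends on the exon length used. In CPM the Pole means were 4.83, 3.79, 3.61 and 4.56, above the Ercc1 means of 1.6, 1.56, 1.65 and 1.64.

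Lig1, ligase I, showed the opposite dependence on control 4. It stood at 3.02 to 5.15 CPM with high protein, 3.57 to 4.91 CPM with low protein, 3.6 to 4.89 CPM with low fat, and 5.92, 6.47, 6.13 and 2.61 CPM in controls 1 to 4. With all libraries its log2 fold changes were -0.27, -0.32 and -0.37 (SE 0.26, edgeR adjusted p 0.644 to 0.802). Without control 4 they were -0.5, -0.56 and -0.62 (SE 0.2, unadjusted p 0.0217, 0.0122 and 0.00623, adjusted p 0.518, 1 and 0.893). The summed S phase list of 26 genes is given in CPM of the library total, without the TMM scaling used for Lig1. On that scale control 4 was the lowest library, at 62.6 CPM. The factor of control 4, 0.7778, would raise its sum, and its rank on the scale of Lig1 is not given here. Controls 1 to 3 stood at 124, 113 and 156 CPM, an order that differs from that of Lig1. The sum was 84.9 to 99.5 CPM with high protein, 81.4 to 124 CPM with low protein and 106 to 128 CPM with low fat. The part of this list in the Lig1 values was not tested.

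Control 4 lay outside the range of the other libraries in every step but TFIIH. Relative to the mean of each gene over 16 libraries, the median log2 deviation in control 4 was 0.38 for damage sensing, 0.72 for transcription-coupled repair, -0.08 for TFIIH, 0.36 for damage verification and excision and -0.37 for gap filling. In the other 15 libraries these medians lay between -0.34 and 0.27. Control 4 was the highest of 16 libraries for 16 members (42.1%, against 29.1% of all genes) and the lowest for 10 (26.3%, against 26.1% of all genes). It exceeded the mean of the other 3 controls by more than 1.5 times for 8 members (21.1%, against 26.2% of all genes), with ratios of 2.92 for Xpa, 2.7 for Ercc2 and 2.42 for both Ercc5 and Gtf2h1. It lay below that mean divided by 1.5 for 9 members (23.7%, against 33.4% of all genes), 6 of them in gap filling, with ratios of 0.359 for Cetn2, 0.378 for Rfc4, 0.423 for Lig1 and 0.434 for Pold1. As shares, the count of members lowest in control 4 was near that of all genes. The count highest in control 4 was above it, and both counts at 1.5 times were below it. These differences were not tested.

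**Figure D3:**
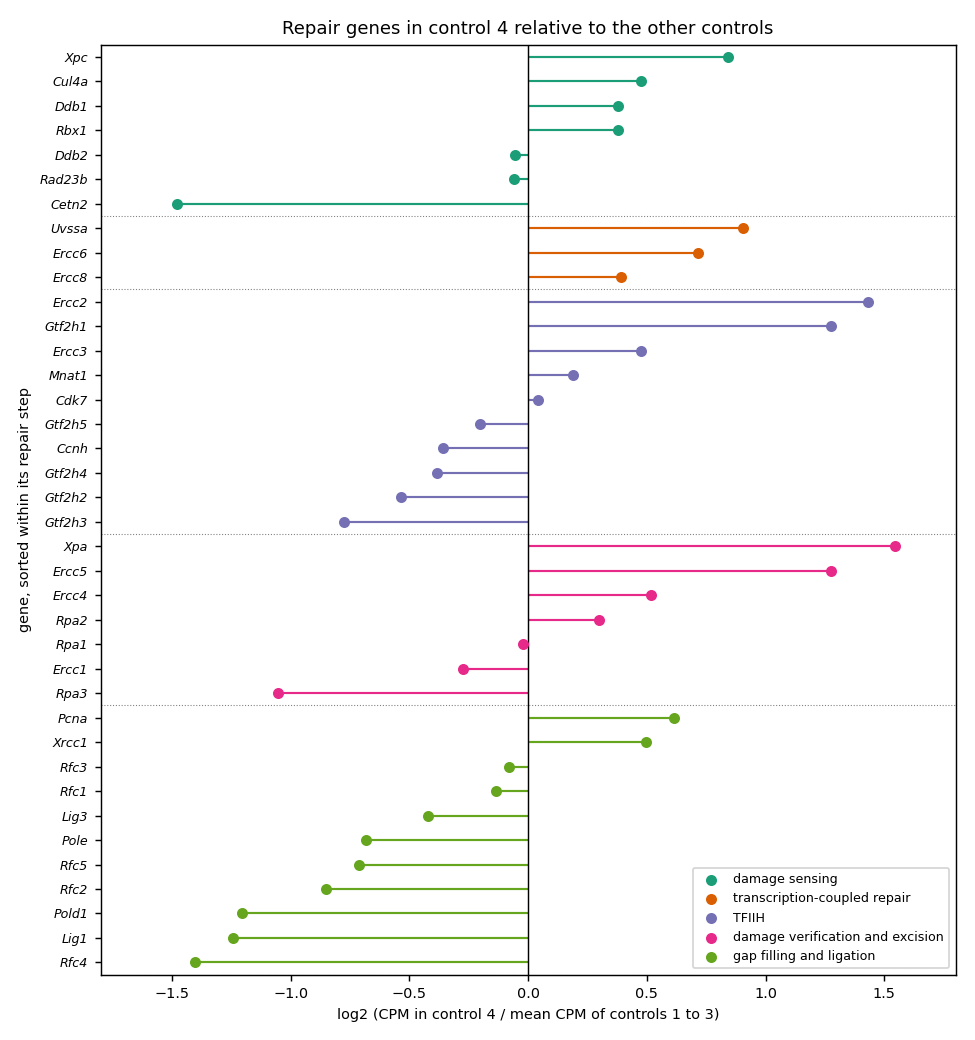
Log2 ratio of each repair gene's CPM in control 4 to its mean CPM in controls 1 to 3, 1 line and point per gene, coloured by repair step and sorted within it. Genes of transcription-coupled repair all lie above 0, most gap filling genes lie below 0, and Xpa (ratio 2.92) and Cetn2 (ratio 0.359) are the extremes.

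**Figure D4:**
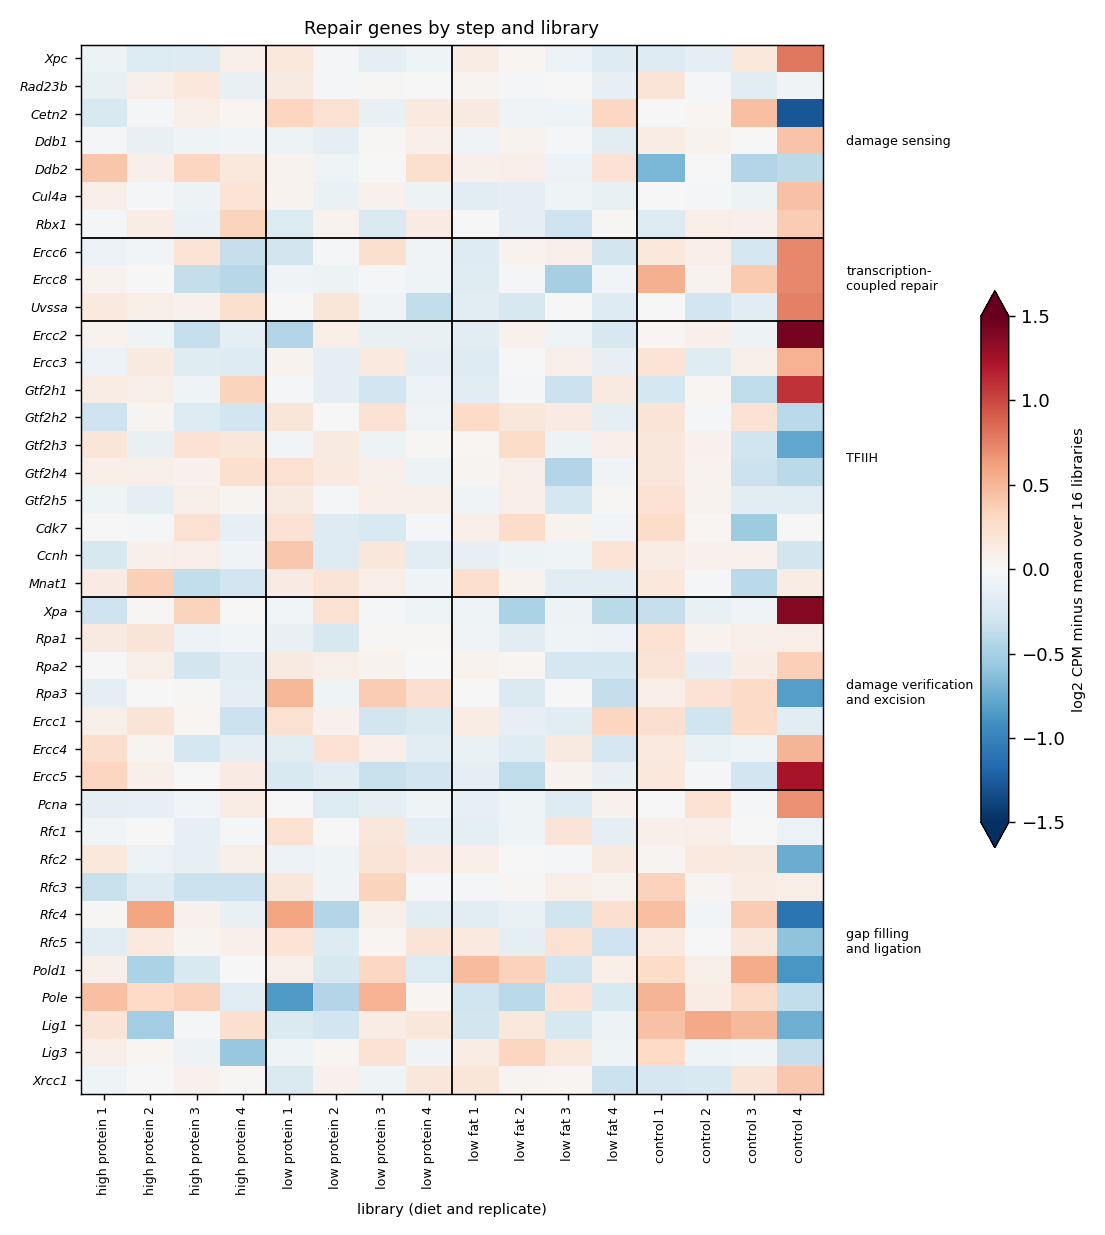
Deviation of log2 CPM from each gene's mean over 16 libraries for the 38 repair genes (rows, by step) in every library (columns: high protein, low protein, low fat, control), in red above and blue below the mean; the colour scale ends at 1.5 in both directions. Control 4 stands apart, Rfc3 is below its mean in all 4 high-protein libraries, and no altered diet forms a block of 1 colour across a step.

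The series title names a decline of transcription with gene length, so the members' lengths were set beside their fold changes. The members had a median genomic length of 26.9 kb and the 14272 protein-coding genes tested one of 23.7 kb. Spearman's rho between length and log2 fold change across the 38 members was -0.08 with high protein, -0.32 with low protein and -0.3 on the low-fat diet, each against control, and -0.22, -0.14 and -0.02 across the protein-coding genes. For high protein minus low protein it was 0.21 in the members and -0.11 in all protein-coding genes, and for high protein minus low fat 0.22 and -0.16. These are correlations across genes of the same libraries, and genes are not independent replicates. The rhos against control rest on fold changes that include control 4, and rhos without that library are not given here. Control 4 stood at 2.92 times the mean of the other controls for Xpa (41 kb) and 0.359 times for Cetn2 (4.88 kb). It also stood at 0.622 times for Pole (51.2 kb) and 1.53 times for Pcna (4.15 kb). A trend of the members with length can therefore not be read from the rhos against control.

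Other genes of nucleotide excision repair and of neighbouring repair pathways were described the same way. None of the 24 further nucleotide excision repair genes passed the test. Their median log2 fold change was -0.16 with high protein, -0.11 with low protein and -0.15 on the low-fat diet, and 0, 2 and 6 were lower at an unadjusted p under 0.05 while 0 were higher. These are 0%, 8.33% and 25% of the list, against 3.74%, 4.73% and 6.13% of all genes. Without control 4 the medians were 0.04, -0.04 and -0.09, and 0, 0 and 2 were lower. These are 0%, 0% and 8.33% of the list, against 4.11%, 1.63% and 3.15% of all genes. In interstrand crosslink repair, where ERCC1-XPF also cuts, 0 of 16 genes passed, with medians of -0.13, -0.1 and -0.21. At an unadjusted p under 0.05, 1 was lower with high protein, 1 higher with low protein and 1 lower with low fat. Each is 6.25% of the list, against 3.74%, 2.35% and 6.13% of all genes in those directions. Without control 4, 3 were lower with high protein (18.8%, against 4.11%) and 1 with low fat (6.25%, against 3.15%). With low protein 1 was then higher and 1 lower (6.25% each, against 2.02% and 1.63%). The crosslink repair gene with the smallest p was Slx1b, a nuclease subunit (0.0328, edgeR adjusted p 0.737), at 7.23 ± 1.08 CPM with high protein, 8.42 ± 0.749 CPM with low protein, 6.2 ± 0.503 CPM with low fat and 6.21 ± 1.03 CPM in control (SD, n = 4). In base excision repair 0 of 18 passed, with medians of -0.1, -0.05 and 0.01, and 0 had an unadjusted p under 0.05. Apex1, the endonuclease at abasic sites, had the smallest p (0.197, adjusted p 0.76), at 8.73 ± 0.755, 8.9 ± 0.464 and 9.48 ± 0.643 CPM on the altered diets in the same order and 10.4 ± 1.29 CPM in control.

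The S phase list of replication and proliferation genes had medians of -0.29 with high protein, -0.04 with low protein and 0.01 on the low-fat diet, and 0 of 26 passed, while 2 were lower at an unadjusted p under 0.05 with high protein, 2 were lower with low protein and 2 were higher with low fat. Each count of 2 is 7.69% of the list, against 3.74% and 4.73% of all genes lower and 3.09% higher. Without control 4 the medians were -0.35, -0.29 and -0.1, and 5, 2 and 2 were lower. These are 19.2%, 7.69% and 7.69% of the list, against 4.11%, 1.63% and 3.15% of all genes. Cdk1, the mitotic kinase, had the smallest p of the S phase list (0.0371, edgeR adjusted p 0.737), at 1.37 ± 0.17 CPM with high protein, 1.97 ± 0.409 CPM with low protein, 2.29 ± 0.721 CPM with low fat and 1.35 ± 0.458 CPM in control (SD, n = 4). Of 15 p53 targets outside the member list 0 passed, with medians of 0.06 with high protein, 0 with low protein and 0.05 on the low-fat diet. At an unadjusted p under 0.05, 0 were higher and 1 lower with high protein, 1 was higher and 3 lower with low protein, and 2 were higher and 1 lower with low fat. The higher shares were 0%, 6.67% and 13.3% of the list, against 2.48%, 2.35% and 3.09% of all genes. The lower shares were 6.67%, 20% and 6.67%, against 3.74%, 4.73% and 6.13%. Without control 4, which had the high sum of this list, the medians were 0.19, 0.25 and 0.19, and 12, 11 and 13 of 15 lay above 0. In those fits 3, 0 and 4 were higher and 0 lower in each comparison. The higher counts are 20%, 0% and 26.7% of the list, against 4.68%, 2.02% and 2.43% of all genes. Fas, a death receptor gene, had the smallest p of the p53 list among the 4 diets (0.006, edgeR adjusted p 0.695). It stood at 11.6 ± 1.6 CPM with high protein, 14.9 ± 1.67 CPM with low protein, 17.2 ± 2.65 CPM with low fat and 12.4 ± 1.58 CPM in control.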

How the data were processed

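The values are counts of reads per gene in 1 deposited table that covers all 16 libraries and also holds gene positions and summed exon lengths. Libraries were made with a directional kit, per the labels' protocols. Trimmomatic 0.39, STAR 2.7.0f, featureCounts, Subread 1.6.4, edgeR 3.32.1 and build GRCm38.p6 are listed, per the submitters' processing notes. For the strand setting and the annotation used in counting, the sources used here give nothing. Groups and replicate numbers came from the sample titles. Of the 54752 gene identifiers, 53861 matched GENCODE M21 with their version and 54723 without it, which supplied symbols, and positions are those of the table.

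Genes kept by filterByExpr were tested with edgeR 4.0.16 under R 4.3.3. TMM factors scaled the libraries, and 1 quasi-likelihood fit took all 16 libraries and 4 group means (12 residual degrees of freedom), two-sided, with Benjamini-Hochberg adjustment over 17833 genes at 0.05. FPKM here is CPM per kilobase of exon. Titles number the samples without naming litters or animals, and p-values reflect only sample-to-sample spread. Replicates differed beyond counting noise in every group (chi-square per degree of freedom 44.8 or more). The fit was tested on simulated counts. Intervals for counts cover counting error only.

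Alternatives were RLE factors, no filter beyond a count above 0, DESeq2 1.42.0, the compared groups only, the replicate number as a block, the kidney marker sum as a covariate and leaving out each library. Members, lists and rules were chosen with earlier results of these data known. Members with values in every library were Ercc1, Ercc4, the member of each step with the smallest p among the diets and any with an unadjusted p under 0.05 against control. Each step's most and least abundant genes per kilobase of exon and each other list's gene with the smallest p are given with group means. Some genes that these rules name are not reported here. Genes that overlap a member are named, and other members, such as Lig1, Xpa and Uvssa, were chosen after their values were seen.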

Additional observations from a re-analysis of the deposited data

Results flagged for a closer look

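Values were examined for 38 members in each of 4 groups, 152 combinations, for a library whose gap to its nearest neighbour exceeded Dixon's 95% critical share of the group's range. For normal and independent values, chance alone passes about 1 in 20 such groups, or 7.6 of 152, and 10 passed. The 38 genes were measured in the same 16 libraries, so 1 library can pass several genes together. The 10 can therefore not be read against the 7.6. Of the 10, 6 were in control 4. There Cul4a stood at 156 CPM against 109.5 to 115 CPM in the other 3 controls, Ercc2 at 20.7 against 7.2 to 8.01 CPM, and Xpa at 23 against 6.91 to 8.52 CPM. Ccnh in control 4 stood low at 11.6 against 14.7 to 15.2 CPM, Rfc2 at 13.1 against 22.6 to 24.3 CPM, and Lig1 at 2.61 against 5.92 to 6.47 CPM.

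The other 4 were in altered diets. High-protein 2 had the lowest Gtf2h3 of its group, 11.9 against 14.5 to 14.9 CPM, and the highest Rfc3, 5.05 against 4.59 to 4.61 CPM. Low-protein 2 had the highest Xpa, 10.4 against 8.47 to 8.65 CPM. Low-fat 4 had the highest Ccnh, 16.2 against 12.9 to 13.4 CPM. Whole-library measures passed as well, the kidney marker sum of control 3, 5024 CPM of its total against 87.6 to 263 CPM in the other controls, and the total of low-fat 2, 112789127 counts against 36871852 to 40506575.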

How the results depend on the processing

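The count of 0 repair genes past the adjusted threshold held under every alternative run in all 7 comparisons. Over 24 pairs of same-numbered libraries of different diets the correlation of deviations ran from -0.201 to 0.301 (median 0.039). Over 72 pairs with different numbers it ran from -0.521 to 0.454 (median -0.005). These pairs share libraries, so the correlations cannot exclude that a number marks a shared litter or day. The replicate block gave 3 members at an unadjusted p under 0.05 between low fat and control and 2 between high protein and low fat, against 6 and 1 without it. The kidney covariate gave 3 and 0. Without the low-count filter high protein and low fat differed for 0. With the compared groups only, the count was 1 between low protein and control, 1 between low fat and control, 4 between high protein and low protein, 4 between high protein and low fat and 1 between low fat and low protein, and 16 of all genes were called between high protein and low fat. DESeq2 gave 7 members among the 4 diets, and called 1, 10 and 4 of all genes with high protein, low protein and low fat against control, 25 between high protein and low protein, 81 between high protein and low fat and 79 among the diets.

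Leaving out 1 library at a time, the members at an unadjusted p under 0.05 numbered 3 to 8 between high protein and control, 3 to 6 between low protein and control, 2 to 9 between low fat and control, 1 to 5 between high protein and low protein, 0 to 5 between high protein and low fat, 0 to 1 between low fat and low protein and 2 to 6 among the diets. Counts that moved by over 1.5 times were, between high protein and control, 8 without control 4 and 7 without control 1, 2 or 3. Between low protein and control the count was 3 without low-protein 4, and between low fat and control 2 without low-fat 4 and 3 without high-protein 2 or low-fat 3. Between high protein and low protein it was 5 without control 4 and 2 without high-protein 2 or low-protein 3. Between high protein and low fat it was 5 without control 4, 2 without high-protein 2 and 0 without high-protein 1, 3 or 4 or low-fat 3. Between low fat and low protein it was 1 without low-protein 2 or control 4, and among the diets 5 without control 2 and 6 without control 3 or 4. Counts of members at an unadjusted p in this section stand without the share of all genes in the same fits. They cannot be read as particular to the members. All genes called stayed at 0, except for up to 109 between low fat and control (without control 3), 19 between high protein and low fat (without control 4; 1 without high-protein 3), 2 between high protein and low protein and 1 among the diets (both without high-protein 3). The members' median log2 fold change stayed between -0.11 and -0.06 for high protein, -0.15 and -0.04 for low protein and -0.18 and -0.09 for low fat, each against control. Of 1188 values of the 9 members given in every library, 63 changed sign, 0 had an adjusted p under 0.05 and 9 moved by over 1 SE, all 9 without control 4. The lowest counts per library, 41 for Rfc4 and 46 for Ercc1, limit the precision of those genes.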
